A study of Homo sapiens with 6 samples.

Results

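The genes described here build the cornified envelope and carry out the last steps of keratinocyte differentiation, and they were measured by RNA-seq in SCC25, an established cell line from a human oral squamous cell carcinoma. Members were 38 listed genes for cornified envelope proteins, barrier lipid enzymes and proteins of the upper epithelial layers. Of the 38, 32 had a row in the gene table of 21776 genes, and 22 had enough reads to be tested among 14255 genes. TGM3, CALML3, CERS3, HRNR, RPTN and CRNN had no row in the table, so their expression was not analysed here.

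Wild-type SCC25 cells were kept in normoxia (air with added CO2) or in hypoxia (1% O2) for 12 h, with 3 libraries per condition, and both conditions used the same serum-containing medium. The question of the design is which transcripts differ between cells under low oxygen and cells in air. Total counts were 30186813, 36076088 and 32272716 in the hypoxia libraries and 37278703, 29637189 and 29981208 in the normoxia libraries. The labels do not say that libraries of a condition came from separate cultures, so the p-values measure the spread between these libraries only. SCC25 is a single tumor line grown without stroma or an air-exposed surface, so these values describe tumor cells and not a stratified epithelium.

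In stratified epithelium, keratinocytes leave the basal layer, stop dividing and replace their plasma membrane with the cornified envelope, a shell of proteins joined by transglutaminases. Involucrin, envoplakin and periplakin form the first scaffold under the membrane, small proline-rich (SPRR) proteins are linked in as cross-bridges, and lipids made by lipoxygenases and ceramide synthases are attached outside. Oral squamous carcinomas keep parts of this program, and most of its small structural genes lie together on chromosome 1 in the epidermal differentiation complex.

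Under hypoxia members moved in both directions. The 4 measurable SPRR genes, SPRR1B, SPRR2A, SPRR2D and SPRR2E, fell, with log2-fold changes of -3.59 to -7.05. The scaffold gene PPL rose 2.82-fold and SCEL, the gene of the envelope protein sciellin, 9.51-fold, and the surface and secreted protein genes LY6D, SPINK5 and SBSN and the barrier lipid genes ALOX12B and ABCA12 also rose. Genes of the same roles fell by less, the scaffold gene EVPL by 0.15 on the log2 scale, the secreted protein gene DMKN by 0.40 and the barrier lipid gene ALOXE3 by 0.61. In all, 11 members were called higher and 7 lower at an adjusted p under 0.05 (edgeR quasi-likelihood test, Benjamini-Hochberg adjustment over all tested genes), while 39.2% of all tested genes were called higher and 38.5% lower. The members' count is to be read against that background, in which 11090 of 14255 genes were called. The 11 members called higher lay higher in every hypoxia library than in any normoxia library and the 7 called lower lay lower, as did 40.6% and 39.9% of all tested genes. Among all tested genes, 0.224% were called lower with a log2-fold change of at least 3 in size, a group of 32 genes that holds the 4 SPRR genes. This threshold was chosen after the values were seen, and nothing is read from it. With a log2-fold change of at least 1 in size also required, 8 members were called higher and 4 lower, beside 19.9% and 10.5% of all tested genes. The median log2-fold change was 0.31 over the 22 tested members and 0.02 over all tested genes. The members' median lay between 0.29 and 0.68 when each library was left out in turn, highest without Normoxia replicate 3, and moved by over 1.5 times without any one library other than Hypoxia replicate 3. It was 0.49 without the filter on low counts, 0.69 when each library had to hold 10 counts or more, and 0.01 in limma on log2(FPKM + 1) without a filter. In bulk RNA, fewer cells of a type and less RNA per cell cannot be told apart.

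The filter that selected the 22 members needed about 0.32 CPM (counts scaled to library size with the TMM factors of edgeR, hence comparable between libraries) in at least 3 libraries. SPRR1B, SPRR2A and SPRR2E passed through their normoxia libraries alone, and SPRR2D had 1 hypoxia library above that level. SBSN passed through its hypoxia libraries alone, and SPINK5 had 1 normoxia library above that level. The counts and the median over tested members therefore describe the tested members only.

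**Figure D1:**
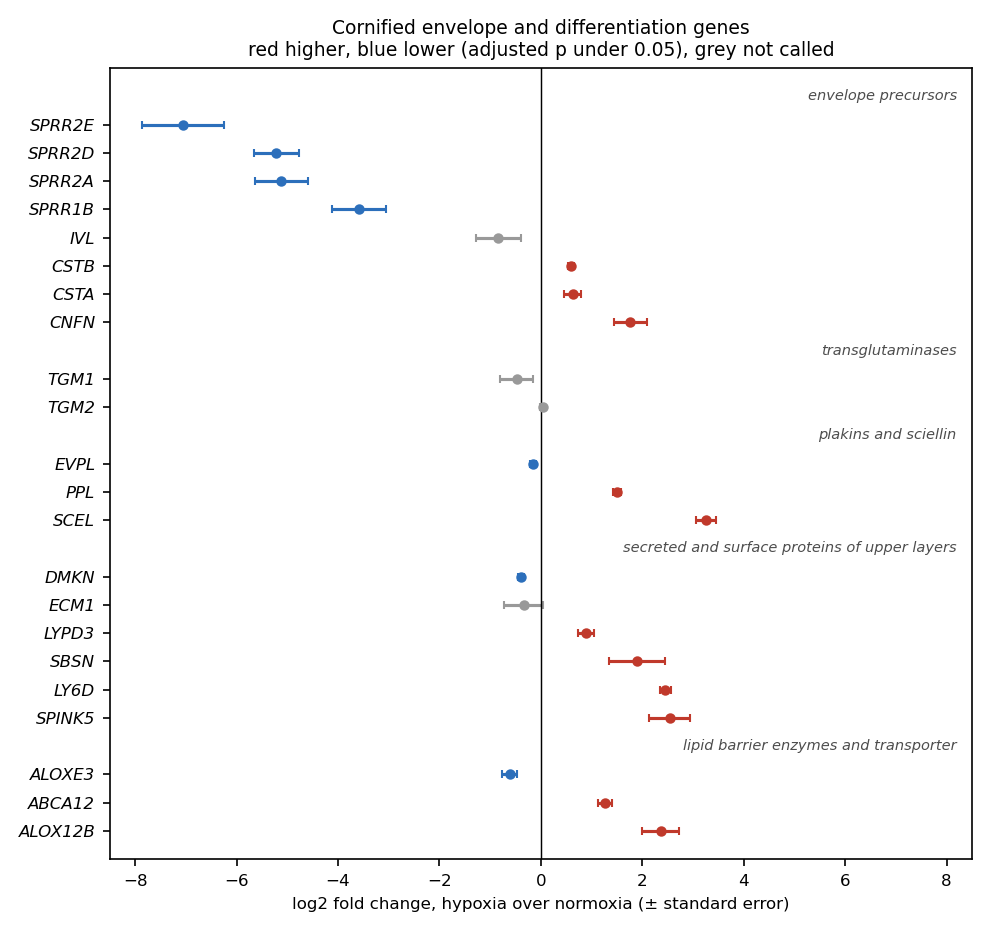
Log2-fold change of each tested member (x axis, hypoxia minus normoxia, log2 units) with its standard error as a bar, grouped by role and ordered by size within a role; red was called higher, blue lower and grey not called by edgeR. The 4 SPRR genes lie lowest, between -3.59 and -7.05, SCEL lies highest at 3.25, and TGM2 is at 0.03.

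The 3 SPRR2 genes that held most of the SPRR reads in normoxia are nearly the same sequence, and their coding sequences are shown because reads could be split between them. Each has a coding length of 219 bases in 1 exon on the minus strand of chromosome 1 (GENCODE v29, GRCh38), SPRR2A at chr1:153056517-153056735, SPRR2D at chr1:153040128-153040346 and SPRR2E at chr1:153093533-153093751. Capitals mark the 6 positions at which the 3 differ.
SPRR2A: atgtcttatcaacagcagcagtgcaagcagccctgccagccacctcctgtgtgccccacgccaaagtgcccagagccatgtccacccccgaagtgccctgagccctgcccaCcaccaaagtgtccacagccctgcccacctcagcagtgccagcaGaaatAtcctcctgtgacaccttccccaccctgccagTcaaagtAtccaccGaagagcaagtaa
SPRR2D: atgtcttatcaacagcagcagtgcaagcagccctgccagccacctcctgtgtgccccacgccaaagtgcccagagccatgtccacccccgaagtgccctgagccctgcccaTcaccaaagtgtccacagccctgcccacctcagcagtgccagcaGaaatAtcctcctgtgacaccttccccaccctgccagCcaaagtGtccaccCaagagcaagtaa
SPRR2E: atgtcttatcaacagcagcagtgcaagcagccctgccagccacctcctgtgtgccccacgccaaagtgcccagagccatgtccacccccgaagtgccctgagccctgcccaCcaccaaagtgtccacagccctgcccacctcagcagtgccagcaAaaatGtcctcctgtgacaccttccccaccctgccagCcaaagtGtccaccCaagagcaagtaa
The coding sequences of SPRR2A and SPRR2D were 98.2% identical, those of SPRR2A and SPRR2E 97.7%, and those of SPRR2D and SPRR2E 98.6%. Over whole transcripts, 20.3% of the 100-base windows of SPRR2A also occurred in another SPRR1 or SPRR2 gene, against 3.74% for SPRR2D and 11.3% for SPRR2E, while SPRR1B had 0 such windows. With 50-base windows the shares were 32.7%, 19.3% and 23.4%, and 4.38% for SPRR1B, and the read length is not given in the sources used here. How the authors assigned reads that match several genes is not given in the sources used here, so the split among SPRR2 genes is uncertain and the summed level is given as well.

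SPRR2D, the highest of the 4 in normoxia, had 8.28, 7.72 and 3.38 CPM in the normoxia libraries and 0.328, 0.0538 and 0.154 CPM in the hypoxia libraries. These values came from 308, 221 and 100 reads in normoxia and 10, 2 and 5 in hypoxia. The conditions did not overlap, and the log2-fold change was -5.22 (SE 0.44, adjusted p = 6.48e-09, edgeR). It was -5.96 without Hypoxia replicate 1, which held 10 of the 17 hypoxia reads.

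SPRR2A had 5.24, 5.94 and 1.72 CPM in normoxia and 0.164, 0.0538 and 0.154 CPM in hypoxia, a log2-fold change of -5.12 (SE 0.52, adjusted p = 7.74e-08, edgeR). SPRR1B had 2.82, 2.41 and 1.32 CPM in normoxia and 0.262, 0.269 and 0 CPM in hypoxia, a log2-fold change of -3.59 (SE 0.53, adjusted p = 8.38e-06, edgeR). Neither gene overlapped between conditions.

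SPRR2E had 97, 59 and 23 reads in normoxia and 0, 1 and 0 in hypoxia, so its single hypoxia read gives a normoxia to hypoxia ratio of 188 with a 95% counting interval of 33.3 to 7464. The fitted log2-fold change of -7.05 depends on the prior count and is not a bound, and it was -8.86 without Hypoxia replicate 2, which held the single read. The call was made at an adjusted p of 3.45e-07 (edgeR).

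Together the 4 SPRR genes had 18.9, 18.1 and 7.20 CPM in normoxia and 0.753, 0.403 and 0.308 CPM in hypoxia. Normoxia replicate 3 stood below the other normoxia libraries for each of the 4, yet the makeup of the sum was similar in the 3 normoxia libraries: SPRR2D made up 43.7%, 42.6% and 46.9%, SPRR2A 27.7%, 32.8% and 23.9%, SPRR1B 14.9%, 13.3% and 18.3%, and SPRR2E 13.8%, 11.4% and 10.8%.

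Normoxia replicate 3 was the normoxia library nearest to the hypoxia mean for 14 of the 18 called members and for 60.5% of all called genes. Genes of the hypoxia response, 15 of 15 called higher beside 39.2% of all tested genes, had a median log2-fold change of 2.71. They summed to 4838 CPM in that library, 4021 and 3995 CPM in the other normoxia libraries, and 18200, 20030 and 20510 CPM in hypoxia. LDHA alone held 2694 CPM in Normoxia replicate 3 and 2349 and 2383 CPM in replicates 1 and 2. NDRG1 had 409 CPM in Normoxia replicate 3 against 163 and 140 CPM in replicates 1 and 2, whereas ADM had 16.8 against 17.9 and 17.9 CPM. The part of the position of Normoxia replicate 3 in the results was not tested. Without it, 13 of 24 tested members were called higher and 7 lower, beside 39.2% and 38.2% of 14719 tested genes, and the 4 SPRR genes had log2-fold changes between -3.86 and -7.43.

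**Figure D2:**
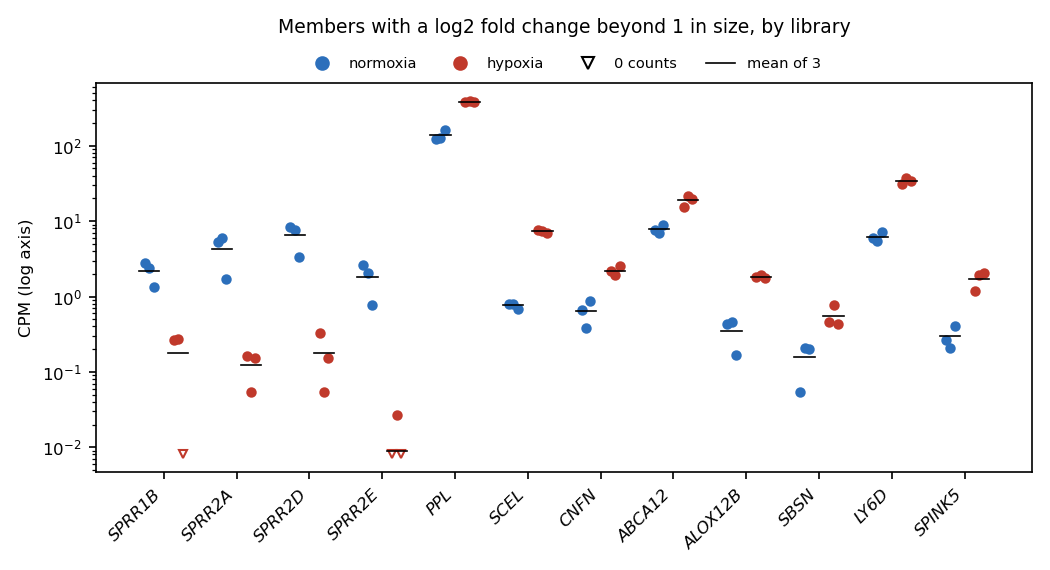
CPM on a log axis in every library for the 12 members with a log2-fold change beyond 1 in size; each point is 1 library, bars are means of 3 and open triangles are libraries with 0 counts. The SPRR points of normoxia lie between 0.777 and 8.28 CPM and those of hypoxia at 0.328 CPM or lower, while SCEL and LY6D lie higher in every hypoxia library.

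Other SPRR members were close to absent. SPRR1A had 3, 6 and 0 reads in normoxia and none in hypoxia. Its level was 3.15-fold lower in hypoxia when the 3 hypoxia libraries together are set at a floor of 3 reads. This value takes the normoxia reads as exact and is not a bound, and Normoxia replicate 3 had none. SPRR3 had 6 reads, all in Normoxia replicate 2. SPRR1A was not tested in the filtered table, and in a fit without the filter it was called lower (adjusted p = 0.0242, edgeR). That fit gave far smaller adjusted p-values for members such as PPL (1.05e-138 against 3.09e-11 in the filtered fit, edgeR). Its adjusted p-values are therefore not comparable with those of the filtered fit. SPRR1A and SPRR1B share 96.3% of their coding sequence, so reads could be split between them.

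Involucrin (IVL), the scaffold protein and a classic marker of differentiation, had 0.295, 0.350 and 0.401 CPM in hypoxia and 0.645, 0.350 and 0.879 CPM in normoxia. The conditions overlapped at Normoxia replicate 2, and the log2-fold change of -0.84 (SE 0.45, adjusted p = 0.0991, edgeR) did not pass. Only the fit without Normoxia replicate 2 passed (-1.12, adjusted p = 0.0480), with adjusted p between 0.0480 and 0.364 over 11 alternatives.

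Cornifelin (CNFN), a protein of the envelope, had 2.16, 1.94 and 2.53 CPM in hypoxia and 0.672, 0.384 and 0.879 CPM in normoxia, and rose by 1.76 on the log2 scale (SE 0.32, adjusted p = 8.84e-05, edgeR). Cystatin A (CSTA) and cystatin B (CSTB), protease inhibitors that are also envelope components, rose by 0.62 (SE 0.16) and 0.59 (SE 0.06) on the log2 scale. CSTB was by far the most abundant member at 710.5 FPKM in hypoxia and 456 FPKM in normoxia (FPKM: reads scaled to gene length and library size, deposited by the authors). LCE3D, a late cornified envelope gene, had 1, 1 and 2 reads in normoxia and none in hypoxia, a level at which no difference could be detected. Of the 11 envelope precursors, 8 were tested, 3 were called higher (CNFN, CSTA and CSTB), 4 lower (the SPRR genes) and 1 was not called (IVL). Of all tested genes, 39.2% were called higher and 38.5% lower.

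Periplakin (PPL), a plakin that links the envelope to keratin filaments, had 381.5, 397 and 382 CPM in hypoxia and 122, 125.5 and 164 CPM in normoxia. Every hypoxia library lay above every normoxia library, and the level was 2.82-fold higher (SE 0.08 on the log2 scale, adjusted p = 3.09e-11, edgeR). Its partner plakin, envoplakin (EVPL), had 64.7, 66.9 and 67.4 CPM in hypoxia and 78.1, 68.4 and 74.6 CPM in normoxia. EVPL fell by 0.15 on the log2 scale (SE 0.06, adjusted p = 0.0275, edgeR), a call that did not hold in 6 of 14 alternatives, among them the fits without Hypoxia replicate 1 and without Normoxia replicate 1 (adjusted p from 0.00511 to 0.261 over the 14). By FPKM, periplakin went from 21.0 in normoxia to 61.3 in hypoxia, while envoplakin was at 11.1 and 10.3.

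Sciellin (SCEL), an envelope protein of stratified epithelia that is counted here with the plakins, had 7.63, 7.34 and 6.93 CPM in hypoxia and 0.806, 0.804 and 0.676 CPM in normoxia. The libraries of each condition lay close together, and the rise was 3.25 on the log2 scale (SE 0.20, adjusted p = 9.27e-11, edgeR), the largest rise among the tested members. The log2-fold change lay between 3.16 and 3.28 when each library was left out in turn.

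**Figure D3:**
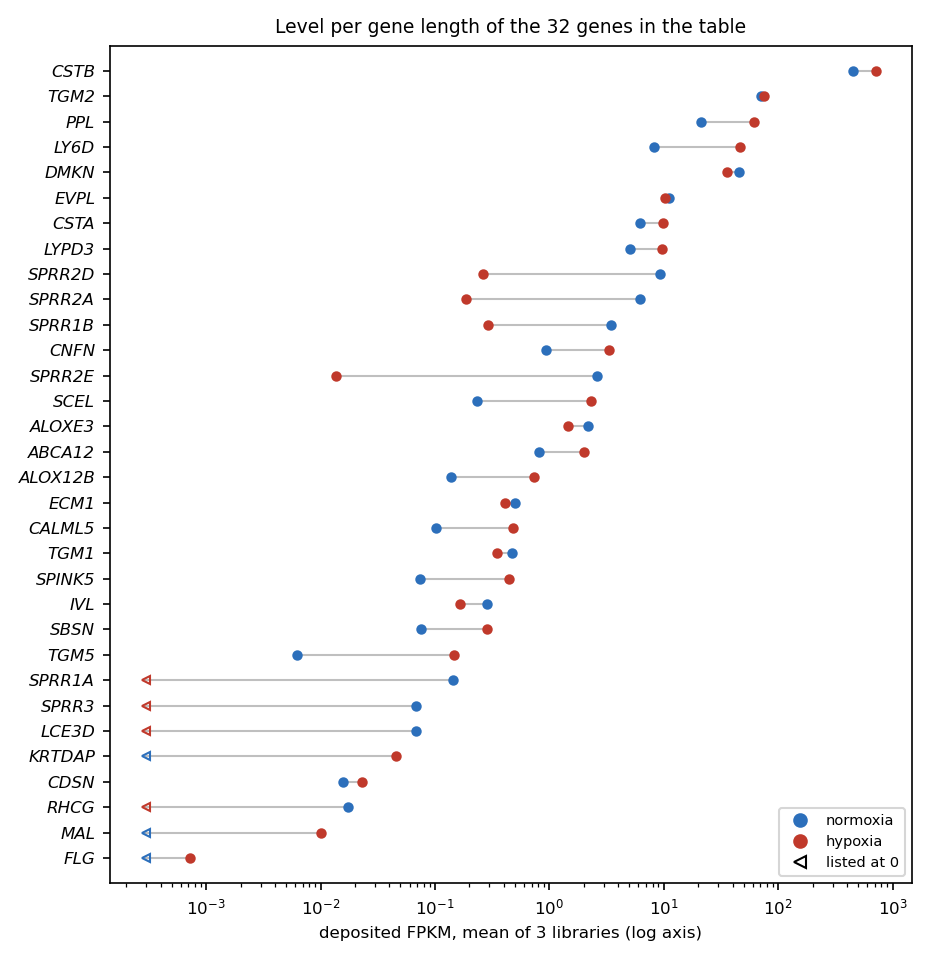
Deposited FPKM (log axis) of the 32 members in the table; points are means of 3 libraries in hypoxia (red) and normoxia (blue), joined by a line, and open triangles are means listed at 0. CSTB is the highest in both conditions at 710.5 FPKM in hypoxia and 456 in normoxia, followed by TGM2, and SPRR2D goes from 9.30 FPKM in normoxia to 0.264 in hypoxia.

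Of the transglutaminases, which join the envelope proteins, none of the tested members was called. TGM2, the tissue enzyme found in many cell types, had 408.5, 365.5 and 382.5 CPM in hypoxia and 379, 391.5 and 361 CPM in normoxia, with a log2-fold change of 0.03 (SE 0.05, adjusted p = 0.603, edgeR). TGM1, the membrane-anchored keratinocyte enzyme, had 0.819, 1.21 and 0.771 CPM in hypoxia and 1.32, 1.57 and 1.05 CPM in normoxia, with a log2-fold change of -0.48 (SE 0.33, adjusted p = 0.188). The conditions overlapped for both. TGM5, an epidermal transglutaminase, had 15, 8 and 23 reads in hypoxia and 1, 1 and 0 in normoxia, a ratio of 21.9 with a 95% counting interval of 5.73 to 186. TGM5 was below the filter, and in the fit without the filter it was called higher (adjusted p = 4.57e-05, edgeR). This adjusted p is not comparable with those of the filtered fit.

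Among the barrier lipid genes, ALOX12B and ALOXE3 encode the lipoxygenases that act one after the other on ceramide-linked fatty acids, and ABCA12 encodes the lipid transporter of lamellar granules. ALOX12B had 1.80, 1.91 and 1.79 CPM in hypoxia and 0.430, 0.454 and 0.169 CPM in normoxia, and rose by 2.36 on the log2 scale (SE 0.37, adjusted p = 1.74e-05, edgeR). ALOXE3 had 5.60, 4.95 and 5.58 CPM in hypoxia and 8.65, 9.30 and 6.66 CPM in normoxia, and fell by 0.61 (SE 0.15, adjusted p = 0.00120, edgeR). The successive lipoxygenases thus went in opposite directions, with no overlap between conditions for either. ABCA12 had 15.3, 21.3 and 19.9 CPM in hypoxia and 7.66, 6.99 and 8.96 CPM in normoxia, and rose by 1.26 (SE 0.13, adjusted p = 1.02e-07, edgeR).

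Of the secreted and surface proteins, LY6D, a GPI-anchored protein of squamous cells, had 31.3, 37.0 and 34.3 CPM in hypoxia and 5.99, 5.49 and 7.27 CPM in normoxia. It rose by 2.45 on the log2 scale (SE 0.11, adjusted p = 1.94e-12, edgeR). SPINK5, whose product LEKTI inhibits the kallikreins that shed corneocytes, had 1.18, 1.91 and 2.07 CPM in hypoxia and 0.269, 0.210 and 0.406 CPM in normoxia, and rose by 2.54 (SE 0.40, adjusted p = 1.59e-05, edgeR). Suprabasin (SBSN) had 14, 29 and 14 reads in hypoxia and 2, 6 and 6 in normoxia, and rose by 1.89 (SE 0.56, adjusted p = 0.00529, edgeR). None of these genes overlapped between conditions.

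LYPD3, a GPI-anchored protein of suprabasal cells, rose by 0.89 on the log2 scale (SE 0.16, adjusted p = 7.33e-05, edgeR), from 8.39 ± 2.77 CPM (SD, n = 3) in normoxia to 15.6 ± 0.754 CPM in hypoxia. Dermokine (DMKN), a secreted protein of the granular layer, fell by 0.40 (SE 0.05, adjusted p = 3e-06), from 120 ± 4.26 to 91.1 ± 2.53 CPM. ECM1, a secreted matrix protein, had a log2-fold change of -0.34 (SE 0.39, adjusted p = 0.427, edgeR), and without Normoxia replicate 3 the value was 0.08.

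The members at the end of the program were at or near 0. Filaggrin (FLG), which bundles keratin filaments, had 1 read in all 6 libraries, KRTDAP 2, MAL 1, RHCG 3 and corneodesmosin (CDSN) 10. CALML5, a calmodulin-like protein of the upper epidermis, had 8, 16 and 18 reads in hypoxia and 5, 1 and 3 in normoxia. The fit without the filter has adjusted p-values that are not comparable with those of the filtered fit. In it, CALML5 was called higher (adjusted p = 0.0147, edgeR) and FLG, KRTDAP, MAL, RHCG, CDSN, LCE3D and SPRR3 were not called. Such counts do not separate a low level from none. More genes had at least 1 read in the hypoxia libraries (18841, 18996 and 18766) than in the normoxia libraries (17505, 17128 and 17378), and the part of this in the rises of members with few reads (TGM5, CALML5, SBSN and SPINK5) was not tested.

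Along the epidermal differentiation complex on chromosome 1, the genes from S100A10 to S100A1 (RefSeq order, boundaries chosen after the values were seen) were described in order. Of 47 genes other than S100 genes, 21 were in the table and 5 were tested; SPRR1B, SPRR2D, SPRR2A and SPRR2E were called lower, IVL was not called, and 0 were called higher, so the calls here are the SPRR members already described. Of the 16 S100 genes, which encode small calcium-binding proteins, 12 were tested, 5 were called higher and 5 lower, close to the 39.2% and 38.5% of all tested genes. S100A14 rose by 1.26 on the log2 scale and S100A7 fell by 0.99. The 33 listed complex genes that are not members, such as LCE1E, TCHH and PGLYRP4, had 10 in the table and 0 tested.

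**Figure D4:**
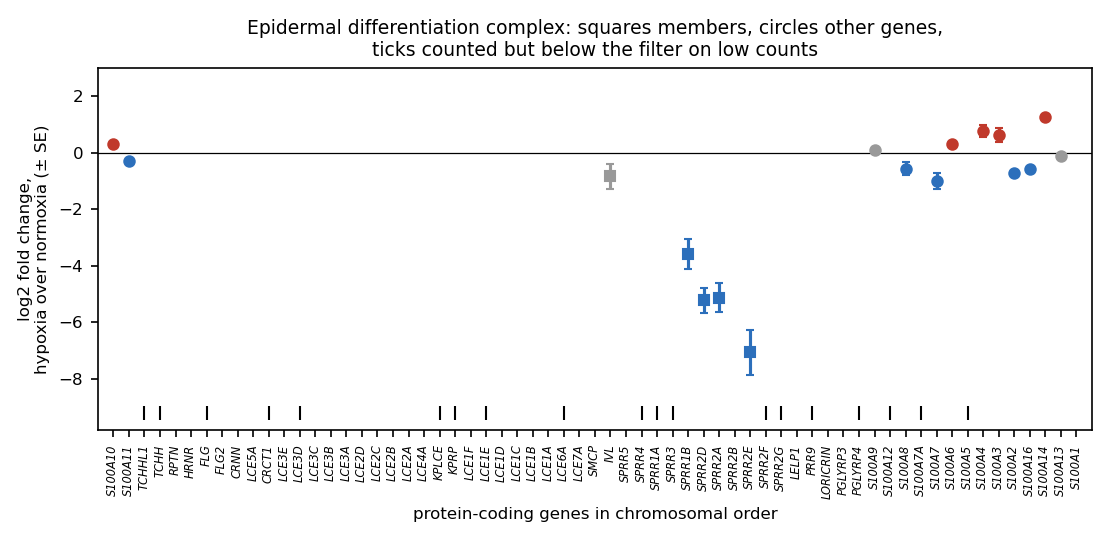
Log2-fold change (y axis, hypoxia minus normoxia, with SE) of tested genes in their order along the epidermal differentiation complex (x axis, rank in the RefSeq order, not distance); squares are members, circles other genes, and ticks at the bottom are genes in the table that were below the filter. The SPRR genes lie between -3.59 and -7.05, while the S100 genes on either side lie between -0.99 and 1.26.

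The 250 bases before the start site of SPRR1B, SPRR2A and SCEL are shown because these genes moved in opposite directions and each sequence holds a TGANTCA match, the letters bound by AP-1 factors. They come from RefSeq (GRCh38.p14), at chr1:153030953-153031202 on the plus strand, chr1:153057513-153057762 on the minus strand and chr13:77535456-77535705 on the plus strand. Capitals mark matches to TGANTCA, to ACGTG or GCGTG (the core of the hypoxia response element) and to TATAAA, searched on both strands.
SPRR1B: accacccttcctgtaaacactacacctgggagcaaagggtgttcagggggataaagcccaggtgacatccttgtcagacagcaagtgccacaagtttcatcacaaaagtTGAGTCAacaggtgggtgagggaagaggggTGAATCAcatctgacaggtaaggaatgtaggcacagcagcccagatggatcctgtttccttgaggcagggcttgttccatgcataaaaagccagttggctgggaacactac
SPRR2A: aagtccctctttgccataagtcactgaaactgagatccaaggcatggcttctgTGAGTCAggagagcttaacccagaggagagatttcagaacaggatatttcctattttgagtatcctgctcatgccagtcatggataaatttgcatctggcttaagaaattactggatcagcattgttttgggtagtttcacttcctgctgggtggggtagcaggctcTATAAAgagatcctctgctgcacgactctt
SCEL: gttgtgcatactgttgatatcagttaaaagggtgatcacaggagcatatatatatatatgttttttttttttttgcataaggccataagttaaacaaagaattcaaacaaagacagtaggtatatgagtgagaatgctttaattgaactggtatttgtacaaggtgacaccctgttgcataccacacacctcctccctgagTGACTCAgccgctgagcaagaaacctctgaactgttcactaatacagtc
TGANTCA, which reads the same on both strands, lay 141 and 111 bases before the start of SPRR1B, 197 before SPRR2A and 49 before SCEL. It was found in 15 of 36 promoters of the 28 members with an entry and in 6.57% of 35116 promoters in the RefSeq table. ACGTG or GCGTG was in 14 of the 36 and in 43.2% of all promoters, and in none of the 3 shown, which were picked for TGANTCA. Among called members with an entry it lay in a promoter of CNFN, ABCA12 and SBSN, which rose, and of ALOXE3 and DMKN, which fell. The called members PPL, LY6D, CSTA, CSTB, EVPL, SPRR2D and SPRR2E had no entry and were not searched. TATAAA was in 12 of the 36 and in 10.7% of all. These counts include 9 promoters of the 6 members with no row in the gene table, and over the 27 promoters of the other 22 genes they were 13, 11 and 8. A match of letters is a description and was not tied to the direction in which a gene moved.

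The other genes of the differentiation program were taken from lists that are not members, and each list's calls stand beside 39.2% of all tested genes called higher and 38.5% called lower. The same filter applied, so the counts and medians of these lists describe their tested genes only. Of the genes named below, KRT13 and RORA passed through their hypoxia libraries alone and KRT6C through its normoxia libraries alone. Of 12 genes for proteases, protease inhibitors and peptidylarginine deiminases, which change arginine to citrulline in proteins, 10 were tested, 8 were called higher and 2 lower, with a median log2-fold change of 1.68. PADI3 had 127, 134 and 130 CPM in hypoxia and 0.752, 0.909 and 3.75 CPM in normoxia, a rise of 6.23 on the log2 scale (SE 0.24, adjusted p = 3.41e-13, edgeR). CASP14, the caspase of cornifying cells, had 304, 391 and 384 CPM in hypoxia and 3.82, 2.27 and 22.1 CPM in normoxia, a rise of 5.29 (SE 0.42, adjusted p = 3.42e-09, edgeR), with Normoxia replicate 3 well above the other normoxia libraries. PADI1 and PADI2 rose by 3.99 and 2.91, and CTSC, a lysosomal protease, and SERPINB8, a protease inhibitor, fell, with log2-fold changes of -1.41 and -2.17.

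Of 24 regulators, 19 were tested, 12 were called higher and 5 lower, with a median of 0.67, beside 39.2% and 38.5% of all tested genes. ELF3, an epithelial ETS factor, had 417, 436 and 451 CPM in hypoxia and 23.7, 22.1 and 38.7 CPM in normoxia, a rise of 3.95 on the log2 scale (SE 0.14, adjusted p = 1.46e-13, edgeR). GRHL1 rose by 2.06, and GRHL2, OVOL2 and the vitamin D receptor gene VDR fell, with log2-fold changes of -0.53, -0.83 and -0.70. RORA had 212 reads in hypoxia and 2 in normoxia, a ratio of 101 with a 95% counting interval of 27.6 to 839. TP63, the master regulator of squamous cells, and GATA3 were not called (adjusted p = 0.358 and 0.333, edgeR). TP63 had 72.3, 65.7 and 66.8 CPM in hypoxia and 53.3, 52.4 and 82.5 CPM in normoxia, with overlap only at Normoxia replicate 3.

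Of 10 desmosomal genes, 8 were tested, 7 were called higher and 1 lower, with a median of 0.70, beside the same 39.2% and 38.5%. DSG3 and PKP1, a desmosomal cadherin and a plaque protein, rose by 1.35 and 1.21 on the log2 scale, and PKP3 fell by 0.15. Of 22 other lipid barrier genes, 14 were tested, 7 were called higher and 6 lower, with a median of 0.18, close to the shares of 39.2% and 38.5% over all tested genes. SULT2B1, a cholesterol sulfotransferase, and the transporter ABCA7 rose by 1.77 and 1.60, and the fatty acid transporter SLC27A4 fell by 1.92. Other transglutaminases had 2 of 4 genes in the table and 0 tested.

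Keratins of differentiated layers were low in number. Of 10 listed, 3 were tested: KRT13, the keratin of the non-cornified mucosa, rose by 2.81 on the log2 scale, and KRT10 and KRT80 fell, with log2-fold changes of -0.57 and -0.22. The KRT13 rise rests on 37, 45 and 44 reads in hypoxia and 9, 5 and 3 in normoxia. All 5 keratins of activated, wounded or hyperproliferative epithelium were tested, 2 were called higher and 3 lower, again beside 39.2% and 38.5% of all tested genes. KRT6A had 18.7, 18.8 and 12.0 CPM in normoxia and 0.590, 0.753 and 1.51 CPM in hypoxia, a log2-fold change of -4.12 (SE 0.25, adjusted p = 7.48e-11, edgeR). KRT6B and KRT6C also fell, with log2-fold changes of -2.65 and -3.30, and KRT16 and KRT17 rose by 1.69 and 1.06. KRT6C had 72, 56 and 36 reads in normoxia and 6, 8 and 3 in hypoxia. KRT6A, KRT6B and KRT6C are near-identical copies, so reads could be split among them.

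**Figure D5:**
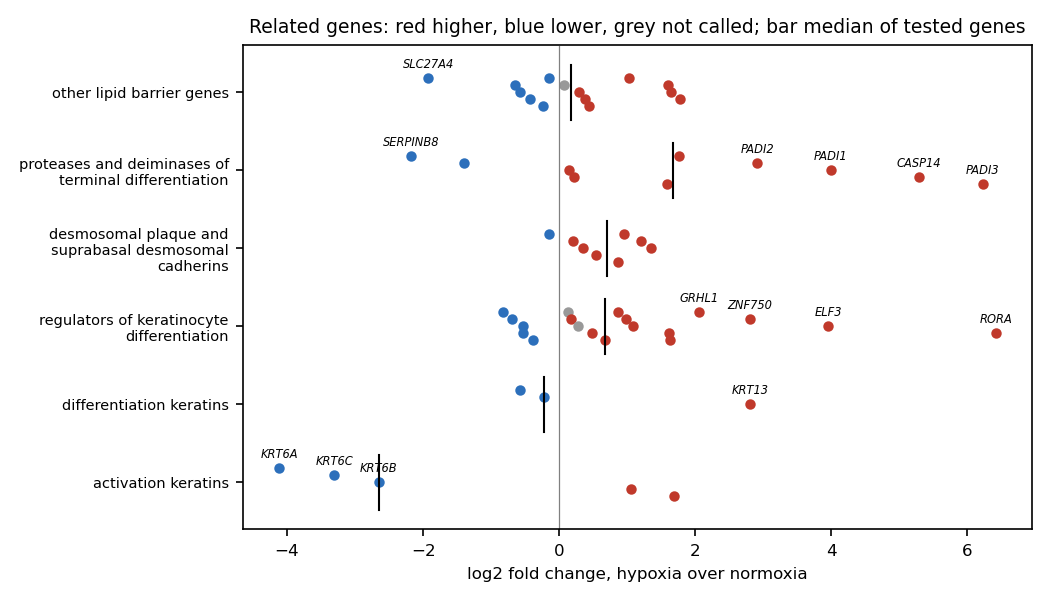
Log2-fold change (x axis, hypoxia minus normoxia) of tested genes in each list of the differentiation program that are not members; each point is 1 gene (red called higher, blue lower, grey not called) and the bar is the list's median. The list of proteases, inhibitors and deiminases reaches 6.23 (PADI3), and KRT6A and KRT6B lie at -4.12 and -2.65; the point of RORA rests on 2 reads in normoxia.

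The labelled squamous origin was checked with its markers. KRT5, TP63, CDH1, DSG3 and PKP1 were among the 9 of 10 markers tested, whereas KRT14, a defining basal keratin, had 1 read in all 6 libraries. Of the 9 tested, 4 were called higher and 3 lower, and of 10 tested basal layer markers, 7 were called higher and 2 lower. These counts stand beside 39.2% of all tested genes called higher and 38.5% called lower. KRT15, a basal keratin, rose by 3.49 on the log2 scale and ITGA6, an integrin of basal cells, fell by 0.68.

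Markers of other cell types were near 0 with few exceptions. COL1A1, the most abundant fibroblast marker, had 18.0 CPM in hypoxia and 3.76 CPM in normoxia, and the other 5 markers lay below 1 CPM. Summed fibroblast markers were 21.4, 18.2 and 16.7 CPM in hypoxia and 3.68, 2.94 and 5.27 CPM in normoxia. PTPRC, which defines leukocytes, had 2 reads in all, CD68 had 31.0 CPM in hypoxia and 33.1 CPM in normoxia, CD14 rose by 2.45 on the log2 scale, and CD3E, CD79A and LYZ lay below 1 CPM. Summed immune markers were 33.7, 37.4 and 39.6 CPM in hypoxia and 33.6, 33.0 and 35.9 CPM in normoxia. The 4 endothelial markers and the 2 melanocyte markers in the table averaged below 1 CPM over all libraries, and only CDH5 and PMEL were tested. Summed endothelial markers were 1.67, 1.26 and 1.51 CPM in hypoxia and 0.296, 0.315 and 0.744 CPM in normoxia, with CDH5 called higher by 1.14 on the log2 scale, PECAM1 at 24 and 2 reads and VWF at 23 and 0. Summed melanocyte markers were 2.06, 1.88 and 1.17 CPM in hypoxia and 0.323, 0.0699 and 0.372 CPM in normoxia, with PMEL called higher by 2.47 and DCT at 26 and 0 reads. The part of these markers in the results was not tested.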

How the data were processed

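RNA-seq was analysed for 3 hypoxia and 3 normoxia libraries of SCC25. The authors deposited counts, whole-number reads per gene for 21776 genes with no normalization, and FPKM of the same genes. Aligner, annotation, counting tool and strand setting are not given in the sources used here, and the submitters' processing notes list the mouse builds GRCm38 and mm10 although the table pairs human symbols with Entrez numbers. The study's text names another oral line, SCC9, for this experiment, and the labels were followed.

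Differences were tested on the counts in R 4.3.3 using edgeR 4.0.16 (TMM, filterByExpr, quasi-likelihood F test with condition as the only term, Benjamini-Hochberg adjustment at 0.05), which left 14255 genes. The standard error is that of the log2-fold change in this fit. Counting intervals are 95% and exact and cover counting error only. The floor of 3 reads was set for hypoxia alone and takes the normoxia reads as exact. The method was tested on simulated data. All replicate pairs differed by more than sampling noise, so each library counted once. Alternatives used DESeq2 1.42.0, limma 3.58.1 on log2(FPKM + 1), other filters, a replicate block and leaving out each library. Of the members, those with a log2-fold change of at least 1 in size and a mean of at least 1 CPM were to be given by library, and in other lists up to 3 genes per direction with the largest called change and a mean of at least 1 CPM were to be named. IVL, EVPL, TGM1, TGM2, TGM5, ALOXE3, SPRR1A, SPRR2E, SPRR3, LCE3D, CALML5 and SBSN by library fall outside this rule. So do PADI2, TP63, GATA3, KRT6C, KRT13, KRT14, KRT16, LCE1E, TCHH, PGLYRP4 and the S100 genes. The markers CDH5, PECAM1, VWF, PMEL, DCT, PTPRC, CD68, CD3E, CD79A, LYZ, LDHA and ADM also fall outside it. All of these were chosen after their values were seen. The members and lists were chosen with earlier results of these data known. Some genes of these lists are not reported here by name.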

Additional observations from a re-analysis of the deposited data

How the results depend on the processing

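Of the member fold changes recomputed with all libraries under other settings, 151 kept their direction and side of the threshold, 4 (all EVPL) no longer passed and 1 turned sign (TGM2, -0.009 without the filter). With each library left out in turn, 126 kept both, 2 (EVPL) no longer passed, 1 newly passed (IVL without Normoxia replicate 2) and 3 turned sign: TGM2 ranged from -0.018 to 0.065 and ECM1 from -0.56 to 0.084. Neither TGM2 nor ECM1 passed in any of these fits. The members called higher numbered 8 and those called lower 2, of 14 tested, when every library needed at least 10 counts (39.5% and 39.2% of all genes tested there). That filter removes SBSN, ALOX12B, SPINK5 and the 4 SPRR genes, and EVPL no longer passed. They numbered 8 and 4 when a log2-fold change of at least 1 in size was also asked (19.9% and 10.5% of all tested genes), a rule that left 4338 of 11090 genes called. Members called higher and lower numbered 13 and 8 of 32 tested without the filter (28.2% and 26.6% of all genes), 8 and 6 of 16 in both filtered limma fits (36.7% and 44.2% with a pseudocount of 1), and 13 and 7 of 32 in limma without the filter (28.9% and 23.4%). Calls among the other epidermal differentiation complex genes went from 0 to 1 without the filter and to 2 in limma on log2(FPKM + 1) without the filter, in which more genes were tested. Calls among the activation keratins went from 5 to 3 in limma on log2(FPKM + 1) and log2(FPKM + 0.1), in which genes under 1 FPKM are left out. Called members without overlap numbered 18 by CPM and 17 by deposited FPKM (11 higher and 6 lower, beside 42.5% and 37.9% of all tested genes), an alternative chosen after seeing the data. Same-numbered libraries of the conditions did not deviate together (correlations 0.018, -0.069 and 0.001), and the replicate block, with 10875 genes called, changed no member's call. Depth limits most the 8 members with 10 or fewer reads in all 6 libraries together, of which SPRR1A alone passed, in the fit without the filter.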
